A study of Mus musculus with 22 samples.

Results

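The first response of the mouse liver to interferon-gamma was described from 8 of the series' 22 expression arrays. They were chosen by treatment and time alone: the 4 arrays of livers taken 1 h and 2 h after interferon-gamma and the 4 arrays of untreated livers and of livers taken 4 h after phosphate-buffered saline (PBS). Each of these conditions was covered by 1 array of an IFNg-/- liver and 1 array of a SOCS1-/-IFNg-/- liver, and the design text states that there are no replicates. All mice lacked the interferon-gamma gene, so the injected recombinant protein was the source of interferon-gamma in every treated animal. The SOCS1-/-IFNg-/- mice lacked SOCS1 as well, which the labels give as a whole-animal genotype. Interferon-gamma and PBS went into the abdominal cavity in 100 ul, with 4 ug of the protein in each dose, and untreated mice were not injected. Whether a sample was 1 mouse or a pool is not stated in the labels, nor is an age. The PBS arrays among the 22 are of 4 h and 12 h, with none at 1 h or 2 h. Interferon-gamma at these early times and the handling of the animals at these times therefore cannot be told apart.

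Interferon-gamma binds a receptor with the subunits IFNGR1 and IFNGR2, which signals through the kinases JAK1 and JAK2. The signal reaches gamma-activated sites (GAS) in front of target genes, among them that of the transcription factor IRF1, which acts in turn on a later set of genes through interferon-stimulated response elements (ISRE). SOCS1 is a target of the same pathway that inhibits the kinases. In the liver, hepatocytes, macrophages and endothelial cells all carry the receptor.

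The arrays measured 8251 named genes as log2 expression, on which a difference of 1 is a doubling. The main comparison set the mean of the 1 h and 2 h arrays against the mean of the 4 control arrays, with genotype as a covariate and separate levels for 1 h and 2 h (limma, 4 residual degrees of freedom). With a single array per genotype and condition, the genotypes stood in for replicates at each time. The p-values thus reflect no more than how these arrays scatter, which may be technical. Untreated and PBS livers formed a single control level, so a difference between them enters that scatter as well. Each array correlated with the other 7 at a median Pearson r of 0.985 to 0.993 across genes. The 3′ minus 5′ difference of the Actb control probe sets, a sign of RNA integrity, was 1.31 and 1.32 on the untreated arrays. It was 0.66 to 0.83 after PBS and 0.66 to 1.16 after interferon-gamma. Its part in the differences from untreated livers was not tested.

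The deleted genes were examined as a check of the labels. Ifng ranged from 2.19 to 2.61 over the 8 arrays, low on the scale, and did not pass the test (difference -0.19 ± 0.07 SE, limma adjusted p = 0.34). In IFNg-/- livers Socs1 had log2 levels of 6.73 untreated, 6.80 after PBS, 7.37 at 1 h and 9.21 at 2 h. Socs1 stood at 6.68, 6.57, 6.77 and 6.74 on the same arrays of SOCS1-/-IFNg-/- livers. Socs1 was thus high at 2 h in the genotype that carries the gene and level in the genotype that does not. The genotype difference of its response was -1.40 ± 0.46 (SE), with an unadjusted p of 0.0131 and a limma adjusted p of 1.00.

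The promoters of early genes are shown because they hold the letters that the pathway's factors are known to read. Among the 42 genes called higher at 1 h (0.509% of all genes tested), 33 matched a gene in the table of RefSeq promoters (GRCm38.p6). The 6 below are those with the largest 1 h rises that held a GAS match (TTCNNNGAA) or a CArG box, the site of serum response factor. Each stretch covers the 180 bases before the start site, from -180 to -1. Capitals mark GAS matches, matches to the ISRE core (GAAANNGAA) and a CArG box, each searched on both strands.
Irf1: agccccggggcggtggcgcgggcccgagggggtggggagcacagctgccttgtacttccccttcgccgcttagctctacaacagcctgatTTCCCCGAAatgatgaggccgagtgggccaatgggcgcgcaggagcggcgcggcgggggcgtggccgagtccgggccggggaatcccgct
Gbp7: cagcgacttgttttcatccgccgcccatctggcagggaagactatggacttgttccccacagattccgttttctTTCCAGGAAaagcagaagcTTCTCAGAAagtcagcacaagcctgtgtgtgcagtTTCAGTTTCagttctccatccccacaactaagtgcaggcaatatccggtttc
Igtp: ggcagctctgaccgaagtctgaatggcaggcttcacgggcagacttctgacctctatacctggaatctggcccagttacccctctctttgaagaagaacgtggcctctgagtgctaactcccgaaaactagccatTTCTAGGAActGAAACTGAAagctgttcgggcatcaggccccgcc
Irgm2: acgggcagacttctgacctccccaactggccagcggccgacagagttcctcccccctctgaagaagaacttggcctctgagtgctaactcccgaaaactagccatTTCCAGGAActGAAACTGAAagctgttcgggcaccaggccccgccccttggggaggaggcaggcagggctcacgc
Irf8: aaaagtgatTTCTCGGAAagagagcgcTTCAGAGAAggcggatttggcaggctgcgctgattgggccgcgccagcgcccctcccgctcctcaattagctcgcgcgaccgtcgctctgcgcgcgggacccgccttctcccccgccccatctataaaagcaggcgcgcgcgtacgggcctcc
Zfp36: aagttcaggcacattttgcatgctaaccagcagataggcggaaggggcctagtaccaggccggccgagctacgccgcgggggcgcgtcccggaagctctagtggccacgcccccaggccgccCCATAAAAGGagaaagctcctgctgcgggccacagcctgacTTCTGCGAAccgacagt
The Irf1 stretch lies at chr11:53769834-53770013 on the plus strand and holds the GAS match TTCCCCGAA from -90 to -82. Gbp7, at chr3:142530156-142530335 on the plus strand, holds the GAS matches TTCCAGGAA and TTCTCAGAA and, from -52 to -44, the reverse strand of an ISRE core, TTCAGTTTC. Igtp (chr11:58199376-58199555, plus strand) and Irgm2 (chr11:58214797-58214976, plus strand) are neighbouring members of a gene family, and in both a GAS match stands 2 bases before the ISRE core GAAACTGAA. Irf8 (chr8:120736178-120736357, plus strand) holds the GAS matches TTCTCGGAA and TTCAGAGAA, and Zfp36 (chr7:28379229-28379408, minus strand) holds a GAS match from -17 to -9 and the CArG box CCATAAAAGG from -58 to -49.

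In the promoters from 250 bases before to 50 bases after the start, a GAS match was present for 8 of the 33 genes called higher at 1 h (24.2%) and for 8.5% of the 6576 genes tested that had a promoter in the table. The ISRE core was present for 15 of the 33 (45.5%) and for 8.7% of the tested genes. For the 104 genes with a promoter among those called higher over both times, the shares were 17.3% for GAS and 25.0% for the ISRE core. Matches to the cyclic AMP response element TGACGTCA were found for 0 of the 33 and 3.2% of the tested genes. The metal response element TGCNCNC was found for 63.6% and 62.8%. A match is a description of the letters in this window, and related genes such as Igtp and Irgm2 share stretches of it.

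Over both times, 126 genes were called higher (1.53% of the genes tested) and 18 lower (0.218%). The 3 largest rises were those of Cxcl9 (22.3-fold), Gbp2 (11.0-fold) and Irf1 (9.57-fold). The median rise of the 126 genes was 0.71, 44 of them rose by at least 1 and 17 by at least 2. Among the genes higher, 107 did not overlap with the controls in either genotype, where 4.11% of all genes lay wholly above and 6.42% wholly below. All 126 lay above both the PBS and the untreated liver of their own genotype, as means over 1 h and 2 h. The median difference of the 126 within IFNg-/- was 0.66 and that within SOCS1-/-IFNg-/- was 0.76, and 64 were larger in the latter. These counts describe the arrays that chose the genes. With untreated livers as the only controls 297 genes were called higher and 130 lower, and with PBS livers as the only controls 100 were higher and 33 lower. Of the 126 genes, 121 were among the former and 90 among the latter. With 1 h and 2 h as a single level 36 genes were called higher and 4 lower, and in a fit of all 22 arrays 61 and 9.

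**Figure D1:**
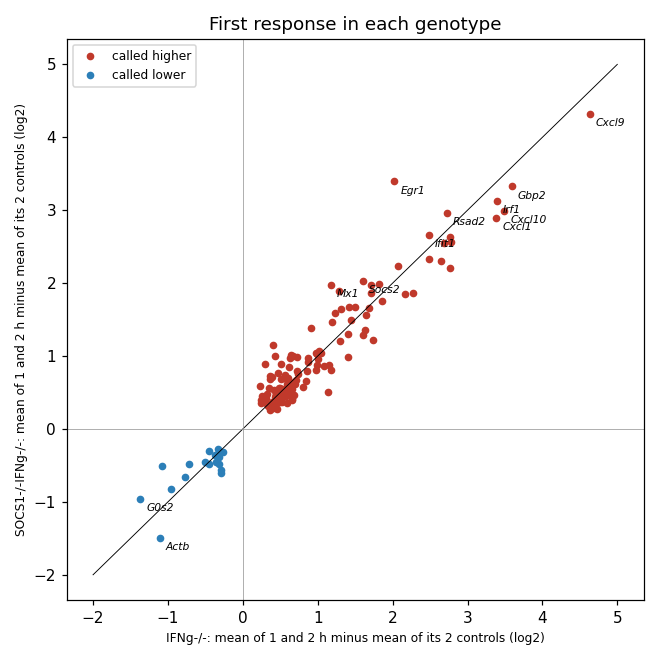
Difference between the mean of 1 h and 2 h and the mean of the 2 controls within each genotype (log2), IFNg-/- on the horizontal axis and SOCS1-/-IFNg-/- on the vertical axis, for the 126 genes called higher and the 18 called lower. Each point is a gene and the diagonal marks equal differences; every point lies in the quadrant of its call, and 64 of the 126 higher genes lie above the diagonal.

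Among the 7 interferon regulatory factors measured, 4 rose (1.53% of all genes did): Irf1, Irf8, Irf7 and Irf9. Irf1, an early target of the pathway, had log2 levels in IFNg-/- livers of 6.47 untreated, 7.14 after PBS, 9.83 at 1 h and 10.56 at 2 h. Irf1 stood at 6.79, 7.38, 10.05 and 10.38 in SOCS1-/-IFNg-/- livers. All 4 interferon arrays thus lay above all 4 controls, with a first-response difference of 3.26 ± 0.17 (SE) and an adjusted p of 2.9e-06. Irf8, a factor of the myeloid lineage that pairs with IRF1, rose from 5.46 and 5.71 to 7.32 and 8.19 in IFNg-/- livers. Irf8 went from 5.73 and 5.42 to 7.12 and 7.72 in SOCS1-/-IFNg-/- livers, and the difference over both genotypes was 2.01 ± 0.10 (SE). Irf7 and Irf9, factors of the type I interferon pathway, had smaller differences of 0.57 ± 0.06 and 0.55 ± 0.07. Irf1 and Irf8 were called at 1 h, and Irf7 and Irf9 at 2 h only; Irf7 was also called higher at 2 h than at 1 h (0.51 ± 0.09, adjusted p = 0.033). The other 3 factors did not pass the test at either time.

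**Figure D2:**
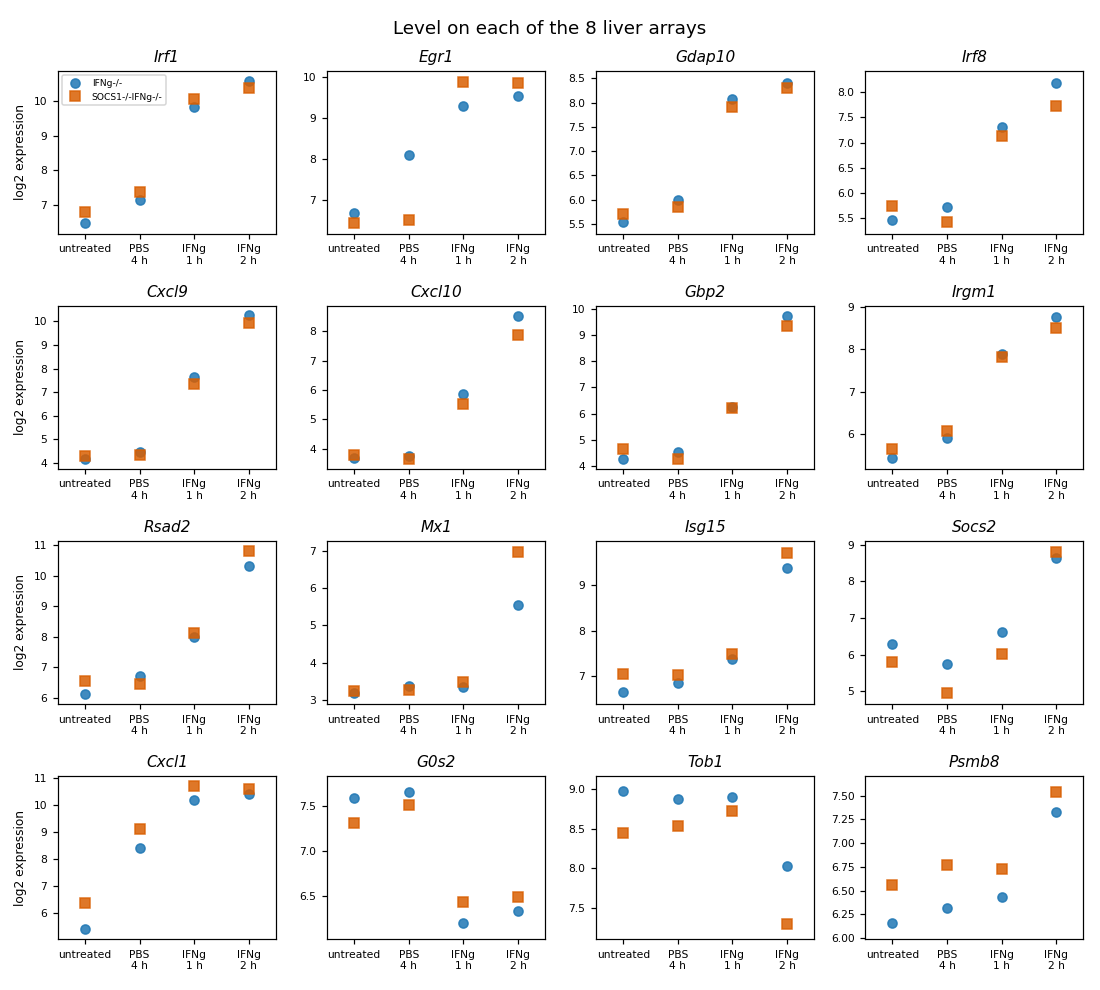
Log2 expression of 16 genes on each of the 8 liver arrays, in the order untreated, PBS 4 h, interferon-gamma 1 h and interferon-gamma 2 h, with circles for IFNg-/- and squares for SOCS1-/-IFNg-/- livers (1 array each, no error bars). Irf1, Egr1 and Gdap10 stand nearly as high at 1 h as at 2 h, Mx1 and Socs2 are high at 2 h only, and Cxcl1 is already raised after PBS.

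The interferon-inducible GTPases, which attack the vacuoles of intracellular pathogens, rose together. All 8 measured members of the list rose over both times, and all 8 were called at 1 h and at 2 h. Over all genes, 1.53% were called higher over both times, 0.509% at 1 h and 2.16% at 2 h. The list did not hold Gbp2b, another guanylate-binding protein, which was measured and not called (0.08 ± 0.11, at 3.94 to 4.38 on all 8 arrays). Their median difference was 2.48, against -0.022 over all genes, and it was 1.71 at 1 h and 3.08 at 2 h. Gbp2, a guanylate-binding protein, had log2 levels in IFNg-/- livers of 4.27 untreated, 4.53 after PBS, 6.25 at 1 h and 9.73 at 2 h. Gbp2 stood at 4.66, 4.27, 6.22 and 9.36 in SOCS1-/-IFNg-/- livers. The arrays of both genotypes thus took a smaller step to 1 h and a larger step to 2 h. Its first-response difference was 3.46 ± 0.11 (SE, adjusted p = 1.1e-07).

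Irgm1, an immunity-related GTPase that regulates its relatives, rose from 5.45 and 5.90 to 7.89 and 8.76 in IFNg-/- livers. Irgm1 went from 5.66 and 6.07 to 7.83 and 8.50 in SOCS1-/-IFNg-/- livers. Its rise over both times was 2.48 ± 0.13 and that at 1 h was 2.09 ± 0.16, and 2 h against 1 h did not pass the test (0.77 ± 0.18, adjusted p = 0.13). Igtp, another immunity-related GTPase, rose by 2.48 ± 0.12, from 5.72 to 6.24 on the controls to 7.58 to 9.45 on the interferon arrays. Iigp1, an effector of the same family, lay between 10.01 and 10.75 on the controls and between 12.04 and 12.37 after interferon-gamma, a difference of 1.90 ± 0.14. Ifi47 (2.70 ± 0.08) and Gbp7 (2.62 ± 0.08) rose as well. Between 1 h and 2 h, 5 members rose further (Gbp2, Ifi47, Igtp, Gbp3 and Gbp7), while Irgm1, Irgm2 and Iigp1 did not pass that test.

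Of 21 chemokines measured, 5 rose over both times, against 1.53% of all genes: Cxcl9, Cxcl10, Cxcl1, Ccl2 and Ccl7. Cxcl9, a ligand of the T cell receptor CXCR3, had log2 levels in IFNg-/- livers of 4.16 untreated, 4.46 after PBS, 7.62 at 1 h and 10.25 at 2 h. Cxcl9 stood at 4.31, 4.33, 7.35 and 9.93 in SOCS1-/-IFNg-/- livers. All 4 interferon arrays lay above all 4 controls, and the difference of 4.48 ± 0.09 (SE, adjusted p = 4.4e-09) was the largest rise among all genes tested. Cxcl10, another CXCR3 ligand, went from 3.68 and 3.74 to 5.87 and 8.53 in IFNg-/- livers. Cxcl10 rose from 3.78 and 3.66 to 5.52 and 7.89 in SOCS1-/-IFNg-/- livers. Ccl2, which attracts monocytes, rose by 2.67 ± 0.17, with levels of 3.54 to 3.92 on the controls and 5.43 to 7.59 after interferon-gamma. Ccl7, a relative of Ccl2, rose by 0.82 ± 0.09. The list median was 0.070, against -0.022 over all genes. Of the 21 chemokines, 16 had a difference above 0, where 3293 of all 8251 genes did. The members not named here were not called over both times.

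Cxcl1, a neutrophil attractant, differed from the other chemokines in its controls. In IFNg-/- livers Cxcl1 stood at 5.42 untreated and 8.40 after PBS, and at 10.20 and 10.40 after interferon-gamma. Cxcl1 stood at 6.39 untreated, 9.10 after PBS, 10.70 at 1 h and 10.59 at 2 h in SOCS1-/-IFNg-/- livers. The PBS livers thus lay 2.84 above the untreated livers, and the interferon livers 1.72 above the PBS livers. The first-response difference of Cxcl1 was 3.14 ± 0.66 (SE, adjusted p = 0.047), and the call was lost when any array of the untreated or interferon livers was left out. It was also lost under quantile normalization, with dim genes left out, with a trended robust prior, and with 1 h and 2 h as a single level. Gadd45g, a stress-induced cell cycle inhibitor, and Socs3 were the other genes of the 126 in which PBS held at least 0.5 of the rise over untreated. The PBS step was 1.54 for Gadd45g and 0.77 for Socs3. Over the 126 genes together, the median PBS step was 0.07, against -0.026 over all genes. Both sets of controls formed a single level in the fit, so a large PBS step widens a gene's spread and makes a call less likely. The small median among called genes is thus partly set by how they were chosen.

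The feedback inhibitors of cytokine signalling held 12 measured genes, of which Socs2, Usp18 and Socs3 rose over both times and 0 were called at 1 h. Over all genes, 1.53% were called higher over both times and 0.509% at 1 h. In IFNg-/- livers Socs2, an inhibitor best known from growth hormone signalling, stood at 6.29 untreated, 5.75 after PBS, 6.62 at 1 h and 8.63 at 2 h. Socs2 stood at 5.81, 4.95, 6.03 and 8.80 in SOCS1-/-IFNg-/- livers. It was thus high at 2 h in both genotypes, by 2.39 ± 0.29 over 1 h (adjusted p = 0.0037). Usp18, which removes ISG15 from proteins and dampens the type I receptor, rose by 1.50 ± 0.11. Socs3, the inhibitor of the interleukin-6 receptor, rose by 1.14 ± 0.20, with 5.94 to 6.80 on the controls and 6.94 to 8.18 after interferon-gamma. Among 14 genes of the receptor and its kinases, Jak2 alone was called over both times (0.31 ± 0.06, adjusted p = 0.046), beside 1.53% of all genes. Ifngr1 and Ifngr2 had differences of -0.12 ± 0.06 and -0.19 ± 0.06 and were not called.

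The antiviral genes that type I interferon also induces rose widely. Of 19 measured, 13 were called over both times (1.53% of all genes), 7 at 1 h and 15 at 2 h, where 2.16% of all genes were called higher. All 19 had a difference above 0, and the median was 0.75. Rsad2, which makes an antiviral nucleotide, had log2 levels in IFNg-/- livers of 6.13 untreated, 6.73 after PBS, 7.99 at 1 h and 10.31 at 2 h. Rsad2 stood at 6.54, 6.46, 8.13 and 10.80 in SOCS1-/-IFNg-/- livers. Ifit1, which binds foreign RNA ends, rose by 2.57 ± 0.10, with 4.96 to 5.22 on the controls. Both genes were above the controls at 1 h and rose again to 2 h.

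Mx1 and Isg15 took larger steps from 1 h to 2 h than from the controls to 1 h. In IFNg-/- livers Mx1, a GTPase that blocks influenza virus, stood at 3.18 untreated, 3.36 after PBS, 3.33 at 1 h and 5.55 at 2 h. Mx1 stood at 3.25, 3.27, 3.48 and 6.97 in SOCS1-/-IFNg-/- livers. The 1 h arrays stood beside the controls (0.15 ± 0.25), and 2 h lay 2.85 ± 0.29 above 1 h (adjusted p = 0.0014). Isg15, a ubiquitin-like modifier, had differences of 0.55 ± 0.09 at 1 h and 2.65 ± 0.09 at 2 h. Mx2 was earlier, with 1.45 ± 0.18 at 1 h and 2.86 ± 0.18 at 2 h.

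Among 15 genes of MHC class I and the immunoproteasome, 3 rose over both times (1.53% of all genes did), namely Tap1, Psmb9 and Psmb8, and Tap1 alone was called at 1 h. Tap1, a peptide transporter, had log2 levels of 6.34 to 6.64 on the controls, 7.39 and 7.23 at 1 h, and 8.40 and 8.19 at 2 h. Its difference was 1.36 ± 0.08 (SE). Psmb9 and Psmb8, subunits of the immunoproteasome, rose by 0.82 ± 0.08 and 0.56 ± 0.08. The class I heavy chains H2-K1 and H2-D1 had differences of -0.07 ± 0.07 and -0.11 ± 0.08, which did not pass the test. Of 14 genes of MHC class II, 0 were called at either time, with a list median of 0.003. Ciita, the master regulator of class II, had a difference of -0.04 ± 0.07, with -0.11 against untreated and 0.02 against PBS livers alone.

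**Figure D3:**
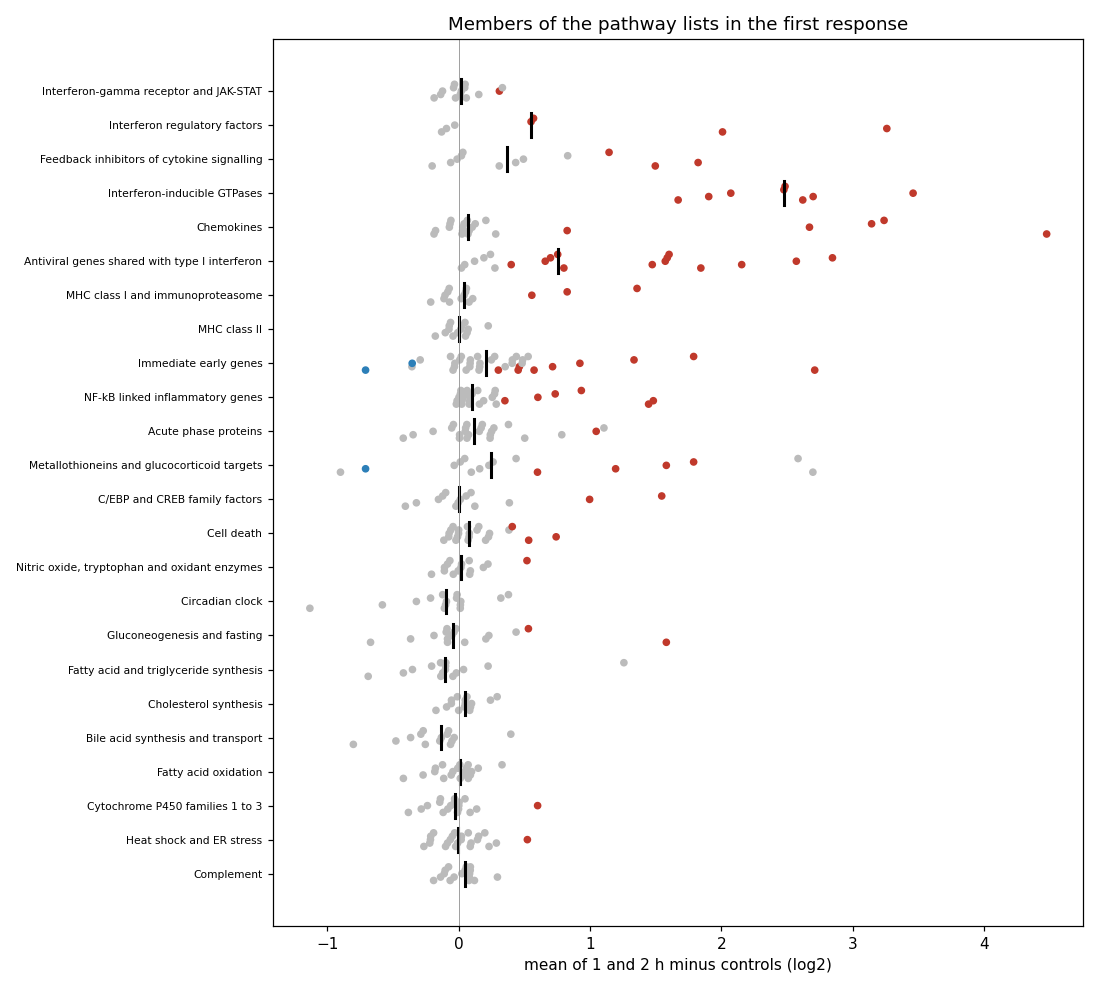
First-response difference (mean of 1 h and 2 h minus controls, log2) of the measured members of 24 pathway lists. Each point is a gene, red where called higher, blue where called lower and grey where not called, and the black bar is the list median. All 8 GTPases and 13 of 19 antiviral genes are red, and the class II list, with 0 called, is centred on 0.003.

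The immediate early genes, which respond to growth factors and stress without new protein synthesis, moved in part. Of 36 measured, 9 rose over both times (1.53% of all genes) and 2 fell, Dusp1 and Ccn1 (0.218% of all genes), and 4 were called higher at 1 h. Egr1, a zinc finger factor, had log2 levels in IFNg-/- livers of 6.68 untreated, 8.08 after PBS, 9.28 at 1 h and 9.53 at 2 h. Egr1 stood at 6.44, 6.50, 9.88 and 9.86 in SOCS1-/-IFNg-/- livers. All interferon arrays lay above all controls, and the IFNg-/- PBS liver stood apart from the other controls. The difference was 2.71 ± 0.32 (SE, adjusted p = 0.0016), and without that PBS liver it was 3.13. The call was lost under a trended robust prior. Another, dimmer probe set of Egr1 gave -0.19 ± 0.14. Zfp36, which destabilises cytokine messages, rose by 1.33 ± 0.11, and Junb, a subunit of AP-1, by 0.92 ± 0.13. Fos, the partner of JUN in AP-1, was measured by probe sets that disagree. The probe set that stood for the gene had 3.95 to 4.21 on the controls and 3.88 to 4.11 after interferon-gamma (difference -0.06 ± 0.07). The other, with nearly the same mean level (4.04 against 4.05), gave 2.05 ± 0.16 over both times, 2.26 at 1 h and 1.83 at 2 h. On it Fos stood at 2.98, 3.42, 5.41 and 4.52 in IFNg-/- livers and at 2.80, 2.85, 5.14 and 5.16 in SOCS1-/-IFNg-/- livers, with no overlap between controls and interferon arrays. For Atf3, a stress-induced factor, the probe set used gave 0.14 ± 0.06 and others 1.52 ± 0.08 and -0.10 ± 0.09, so no single response can be given for either gene. Jun was called at 2 h and not at 1 h, with 0.56 ± 0.09 between the times.

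Of 27 inflammatory genes linked to NF-kB, 6 rose, against 1.53% of all genes: Icam1, Nfkbiz, Il1b, Il1rn, Myd88 and Il1a. Nfkbiz, a nuclear member of the inhibitor family, went from 4.15 to 4.56 on the controls to 5.40 to 5.99 after interferon-gamma, a difference of 1.45 ± 0.11. Icam1, an adhesion molecule for leukocytes, rose by 1.48 ± 0.18. Vcam1 was not called over both times, but its probe sets disagree. The probe set used gave 0.19 ± 0.06, another of similar mean level (5.49 against 5.78) gave 1.12 ± 0.08, and a dimmer one gave 0.02 ± 0.08. In IFNg-/- livers Il1b stood at 4.27 and 4.43 on the controls, 5.43 at 1 h and 5.25 at 2 h. Il1b stood at 4.43 and 4.21 on the controls, 5.77 at 1 h and 4.61 at 2 h in SOCS1-/-IFNg-/- livers. It was thus highest at 1 h in both genotypes, although 2 h against 1 h did not pass the test (-0.67 ± 0.19, adjusted p = 0.23). Cebpd, a factor that drives acute phase genes, rose by 1.54 ± 0.19. Its untreated IFNg-/- liver stood at 6.83 and its other controls at 5.68 to 5.91, against 7.37 to 7.72 after interferon-gamma.

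Among 24 secreted acute phase proteins measured, Serpina3n alone rose over both times (1.05 ± 0.16), where 1.53% of all genes did. At 2 h, 5 were called higher, where 2.16% of all genes were. Lcn2, which withholds iron from bacteria, stood in IFNg-/- livers at 4.13 untreated, 4.47 after PBS, 3.80 at 1 h and 6.40 at 2 h. Lcn2 stood at 4.62, 5.91, 4.84 and 7.23 in SOCS1-/-IFNg-/- livers. On this probe set Lcn2 lay higher at 2 h than at 1 h in both genotypes (2.50 ± 0.32, adjusted p = 0.0047), with a PBS liver above the 1 h liver in both. This call was lost without any of the 4 interferon arrays and under a trended robust prior. Another probe set of Lcn2, with a higher mean on these arrays, gave 0.17 between the times, and the mean of both gave 1.33. The metallothioneins Mt1 and Mt2, which bind zinc and copper, were the most variable. Mt2 stood at 7.30 untreated, 8.03 after PBS, 10.11 at 1 h and 12.06 at 2 h in IFNg-/- livers. Mt2 stood at 7.43, 11.10, 9.92 and 12.55 in SOCS1-/-IFNg-/- livers. The PBS liver of that genotype lay above its 1 h liver, and the difference over both times was 2.70 ± 0.65 (adjusted p = 0.093). At 2 h alone Mt1 and Mt2 were called, with 3.66 ± 0.75 and 3.84 ± 0.80.

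In the lists of the circadian clock, fatty acid and triglyceride synthesis, cholesterol synthesis, bile acid synthesis and transport, and fatty acid oxidation, 0 members were called over both times. They held 15, 15, 15, 14 and 20 measured genes, and over all genes 1.53% were higher and 0.218% lower. Of the 15 cholesterol synthesis genes, 14 had a difference above 0 at 1 h and 1 at 2 h, with 0 called at either time. Over all 8251 genes, 3372 had a difference above 0 at 1 h and 3438 at 2 h. Igfbp1, a binding protein for insulin-like growth factors that fasting raises, rose by 1.58 ± 0.21, with 7.80 to 9.07 on the controls and 9.57 to 10.04 after interferon-gamma. Pdk4, which spares glucose, rose by 0.53 ± 0.09. G6pc, the last enzyme of glucose release, was called lower at 2 h (-1.57 ± 0.34), with controls from 10.14 to 11.69. Of the 14 bile acid genes, 2 were called lower at 2 h (0.654% of all genes): Nr0b2, a repressor of bile acid synthesis (-0.85 ± 0.17), and Slc10a1, the bile acid uptake transporter (-0.43 ± 0.10). Mid1ip1, an activator of fatty acid synthesis, was uneven: it stood at 6.84 and 7.12 on the IFNg-/- controls and at 7.38 and 8.51 on the SOCS1-/-IFNg-/- controls, and its difference of -0.69 ± 0.32 did not pass. Per1, a clock gene, had a difference of 0.01 ± 0.07, with -0.05 against untreated and 0.07 against PBS livers alone. Other clock genes differed between the controls. PBS livers lay above untreated livers by 1.49 for Nr1d1 and 1.05 for Nr1d2, and interferon livers differed from PBS livers by -1.88 and -1.11. Arntl went the other way, with -0.30 and 0.53. Such steps between the controls enter the spread of the test, and their cause was not tested. Of the 18 cytochromes P450, Cyp2j5 rose (0.60 ± 0.07), and of the 23 genes of heat shock and endoplasmic reticulum stress, Hspb8 rose (0.52 ± 0.09). In the remaining lists, beside 1.53% of all genes, 3 of 22 cell death genes rose (Daxx, Fas and Casp4). Of 14 genes of the C/EBP and CREB family 2 rose (Cebpd and Crem), and of 17 complement genes 0 rose. On a mixed list of nitric oxide, tryptophan and oxidant enzymes, 1 of 15 rose, namely Acod1 (0.52 ± 0.08). A dimmer probe set of Acod1 gave 0.08 ± 0.06.

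The falls were fewer and smaller than the rises, with a median of -0.44 over the 18 genes. G0s2, an inhibitor of fat breakdown, stood in IFNg-/- livers at 7.59 untreated, 7.67 after PBS, 6.20 at 1 h and 6.33 at 2 h. G0s2 stood at 7.32, 7.52, 6.44 and 6.49 in SOCS1-/-IFNg-/- livers. It was thus down at 1 h already, without overlap between the groups, by 1.16 over both times (-1.16 ± 0.09, adjusted p = 8.4e-05). Sod1, which removes superoxide, was lower by -0.89 ± 0.14, and Dusp1, a phosphatase of MAP kinases, by -0.71 ± 0.12. The fall of Slc25a25, a mitochondrial carrier, was -0.79 ± 0.16 and lost its call without 7 of the 8 arrays, and that of Dusp1 was lost without any of the 4 interferon arrays. The probe set used for Actb, a cytoskeletal actin, had the largest difference below 0 (-1.30 ± 0.19, adjusted p = 0.0055). It stood at 7.58 to 8.44 on the controls and at 6.41 to 7.07 after interferon-gamma. A dimmer probe set of Actb gave -1.34 ± 0.18. On the array's own control probe set for the 3′ end of Actb, however, all 8 arrays lay between 12.56 and 12.79, and the call of Actb was lost under a trended robust prior. Cldn5, a tight junction protein of endothelium, and Nr2f2, a factor of veins, fell by 0.43 and 0.45 (-0.43 ± 0.08 and -0.45 ± 0.08). The call of Cldn5 was lost without 7 of the 8 arrays and in 3 settings, and that of Nr2f2 without 4 arrays and in 3 settings. Of 11 endothelial markers, 2 had a difference above 0 and 0 were called over both times. Their mean level was 5.97 to 6.05 on the controls and 5.86 to 5.96 after interferon-gamma, without overlap, and Eng, a receptor subunit of endothelium, was called lower at 2 h (-0.38 ± 0.08). The part of endothelial cells in these falls was not tested. Among the 18 genes, which were chosen on these arrays, 14 did not overlap with the controls in either genotype, where 6.42% of all genes lay wholly below.

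At 1 h alone, 42 genes were called higher (0.509%) and 2 lower (0.0242%), the latter being G0s2 and Ccn1. At 2 h, 178 were called higher (2.16%) and 54 lower (0.654%). Both comparisons share the 4 control arrays. The largest 1 h rises were those of Cxcl9 (3.17 ± 0.11), Irf1 (2.99 ± 0.20), Egr1 (2.65 ± 0.39), Gdap10 (2.23 ± 0.12), Irgm1 (2.09 ± 0.16), Cxcl10 (1.98 ± 0.13), Gbp7 (1.93 ± 0.10) and Ccl2 (1.92 ± 0.21). At 2 h the same genes stood at 5.78 ± 0.11, 3.53 ± 0.20, 2.77 ± 0.39, 2.59 ± 0.12, 2.86 ± 0.16, 4.50 ± 0.13, 3.31 ± 0.10 and 3.42 ± 0.21 in that order. Both counts fell when an interferon liver was left out. At 1 h, 44 calls in all became 19 without the IFNg-/- 1 h liver and 24 without the SOCS1-/-IFNg-/- 1 h liver. The call of Ccn1 was lost without any of the 8 arrays, and that of Egr1 without 4 of them. For the 2 h calls, 232 in all, the counts were 111 and 98 without the IFNg-/- and the SOCS1-/-IFNg-/- 2 h liver.

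The direct comparison of 2 h with 1 h takes no control level into its difference, although the control arrays enter the spread it is tested against. It called 63 genes higher at 2 h (0.764%) and 14 lower (0.17%). The 8 largest rises were those of Gbp2 (9.91-fold), Mx1 (7.22-fold), Ifit1 (6.32-fold), Cxcl9 (6.08-fold), Cxcl10 (5.72-fold), Lcn2 (5.65-fold), Rsad2 (5.64-fold) and Gm9706 (5.35-fold). In contrast, Irf1 (0.53 ± 0.23, adjusted p = 0.70), Egr1 (0.11 ± 0.46) and Gdap10 (0.36 ± 0.14) did not pass the test between the times. Gdap10 stood at 8.08 and 7.92 at 1 h and at 8.41 and 8.30 at 2 h, against 5.54 to 5.99 on the controls. Of the 126 genes of the first response, 57 were called higher at 2 h than at 1 h, 0 lower and 69 neither. Their median difference from controls was 0.48 at 1 h and 1.00 at 2 h. At 2 h, 107 of them lay above 1 h in both genotypes, where 29.0% of all genes did. The 126 genes were chosen on these same arrays, so these counts describe them and test nothing further.

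**Figure D4:**
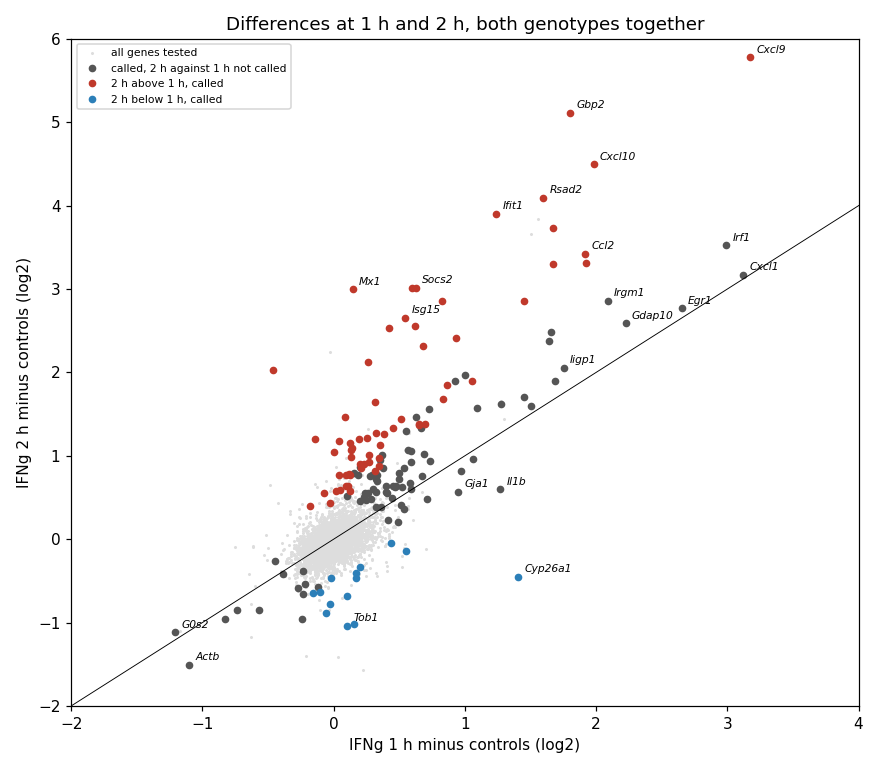
Difference from controls at 1 h (horizontal axis) and at 2 h (vertical axis), both log2 and both against the same 4 control arrays, for all 8251 genes (light grey) and for genes called in the first response, at 1 h or between the times. Red points were called higher at 2 h than at 1 h (63 genes), blue points lower (14 genes), and the diagonal marks equal differences; Irf1, Egr1 and Gdap10 lie near the diagonal and Gbp2, Mx1 and Cxcl9 far above it.

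Lower at 2 h than at 1 h were, among others, Cyp26a1, Tsc22d1 and Tob1. Cyp26a1, which degrades retinoic acid, stood in IFNg-/- livers at 4.67 and 5.16 on the controls, 6.20 at 1 h and 5.04 at 2 h. Cyp26a1 stood at 5.19 and 6.11 on the controls, 7.18 at 1 h and 4.62 at 2 h in SOCS1-/-IFNg-/- livers. The 1 h livers were the highest in both genotypes, and 2 h lay below 1 h by -1.86 ± 0.35 (adjusted p = 0.045). This call was lost in 5 of 6 other settings and without 4 of the 8 arrays. Tob1, an antiproliferative protein, was level at 1 h and lower at 2 h. It stood at 8.97, 8.87, 8.90 and 8.04 in IFNg-/- livers and at 8.44, 8.54, 8.72 and 7.29 in SOCS1-/-IFNg-/- livers, a step of -1.14 ± 0.12. Gas1, a growth arrest gene, took a step of -0.79 ± 0.08 and Cks2, a cell cycle subunit, of -0.75 ± 0.13. The call of Cks2 was lost without 6 of the 8 arrays. Of the genes called higher at 1 h, 5 lay lower at 2 h in both genotypes, named here after their values were seen: Il1b, Il1a, Gja1, Cyp2j5 and Zfp62. Zfp62, a zinc finger gene, was the only one of them called lower at 2 h than at 1 h (-0.69 ± 0.11, adjusted p = 0.020). Gja1, a gap junction protein, stood at 5.39 to 5.59 on the controls, at 6.53 and 6.32 at 1 h, and at 5.99 and 6.10 at 2 h.

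The counts between the times depended on single livers. Of the 63 rises, 29 and 24 genes were called without the IFNg-/- and the SOCS1-/-IFNg-/- 1 h liver, and 36 and 28 without the respective 2 h livers. A fit of all 22 arrays, in which all conditions share a single spread, called 0 genes either way, with 501 genes at an unadjusted p under 0.05 and a smallest adjusted p of 0.0533.

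Whether the first response differed between genotypes was tested as an interaction, and 0 genes were called in either direction (0%). At an unadjusted p under 0.05 stood 167 of the 8251 genes, and the smallest adjusted p was 0.141, for Mtm1, a lipid phosphatase. Mtm1 had a difference of 0.73 in IFNg-/- and -1.29 in SOCS1-/-IFNg-/- livers. Of the 126 genes called higher, 11 were under that unadjusted threshold. Among them, Cxcl10 differed by 3.49 in IFNg-/- and 2.99 in SOCS1-/-IFNg-/- livers, Igtp by 2.76 and 2.21, Mx1 by 1.17 and 1.97, and Egr1 by 2.02 and 3.40. With the PBS livers as the only controls 23 genes were called, and with the untreated livers 3. The main fit left 3 residual degrees of freedom, and the fits with a single set of controls left fewer. These calls thus rest on few arrays, and a p that missed the threshold does not show that the genotypes responded alike.

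The first response was set against the sustained response, the mean of the 12 h and 16 h interferon livers of both genotypes, in a fit of 12 arrays. The difference takes in no control level, so interferon-gamma cannot be told apart in it from the injection, the handling and the time since. In that comparison 121 genes were higher at 1 h and 2 h (1.47%) and 234 were lower (2.84%). The largest differences on the early side were those of Egr1 (2.96 ± 0.32), Cxcl10 (2.69 ± 0.22), Irf1 (2.66 ± 0.16), Socs2 (2.43 ± 0.20), Slc38a2 (1.91 ± 0.18), an amino acid transporter, and Gdap10 (1.87 ± 0.11). For Slc38a2 the mean over its probe sets gave 0.51, since 3 others lay near 0 in the first response (0.04, 0.03 and -0.09), and for Lcn2 it gave -1.93. Irf1, at 9.83 to 10.56 on the early arrays, had a mean of 7.55 at 12 h and 16 h. On the late side stood Lcn2 (-3.68 ± 0.31), Saa3 (-2.80 ± 0.36), Orm2 (-2.58 ± 0.31), Cxcl9 (-2.31 ± 0.17), Saa2 (-2.25 ± 0.43) and Psmb8 (-1.80 ± 0.08). Cxcl9 and Cxcl10 thus parted: Cxcl9, at 7.35 to 10.25 early, had a mean of 11.10 late, and Cxcl10, at 5.52 to 8.53 early, had a mean of 4.26 late. For the genes named on the late side, PBS livers at 4 h already lay above untreated livers. The step was 1.62 for Saa2, 0.82 for Lcn2, 0.71 for Orm2, 0.27 for Saa3, 0.19 for Psmb8 and 0.16 for Cxcl9. Of the 126 genes of the first response, 65 were higher early than late and 10 lower. These genes were chosen for being high on the same early arrays, which tilts this count toward higher early.

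**Figure D5:**
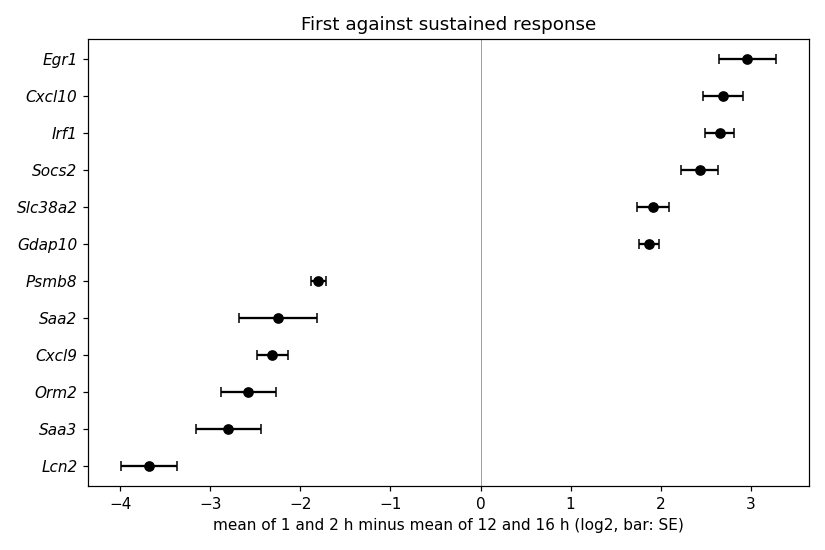
Difference between the mean of the 1 h and 2 h arrays and the mean of the 12 h and 16 h arrays (log2, bars are SE from a fit of 12 arrays) for the 6 genes with the largest called difference in each direction. Egr1, Cxcl10, Irf1, Socs2, Slc38a2 and Gdap10 lie to the right, higher early, and Lcn2 lies farthest to the left, at -3.68.

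By lists, 8 of 15 genes of MHC class I and the immunoproteasome and 7 of 14 of MHC class II were lower early than late (2.84% of all genes). Cd74, the class II invariant chain, was lower by -1.22 ± 0.17. For the acute phase proteins it was 9 of 24. The antiviral list went the other way, with 7 of 19 higher early (1.47% of all genes) and 0 lower. Of the GTPases, Irgm1, Irgm2 and Iigp1 were higher early and Gbp2 and Gbp3 lower. The count of genes higher early ranged from 53 to 138 and that of genes lower early from 55 to 267 when arrays were left out singly.

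Markers of the liver's cell types were read on the same arrays, since in bulk tissue fewer cells of a type and less RNA per cell cannot be told apart. The mean level of 13 hepatocyte markers was 11.42 to 11.55 on the controls and 11.46 to 11.54 after interferon-gamma, with 0 called. Markers of macrophages (12), T and NK cells (15), B cells (9), stellate cells (11), cholangiocytes (6), erythroid cells (7) and exocrine pancreas (5) had 0 called over both times, as had the endothelial markers given beside the falls. Of 13 neutrophil markers, S100a8 (0.62 ± 0.08) and S100a9 (0.48 ± 0.07) rose, beside 1.53% of all genes. Only 4 of the 13 had a difference above 0, and the list median was -0.064, against -0.022 over all genes. The mean level of that list was 5.13 to 5.29 on the controls and 5.22 to 5.28 after interferon-gamma, and the part of neutrophils in the rise of Cxcl1 or Il1b was not tested.

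Where genes had more than 1 probe set, the others were read as a further measurement. Of the 126 genes, 33 had others, 37 in all, of which 30 moved in the same direction and 11 by at least 0.5 of the size. For the genes called lower it was 3 of 3.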

How the data were processed

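RNA of mouse liver was hybridised to Affymetrix 3-prime arrays, 1 array per liver sample. Per the labels' protocols, RNA was isolated with Trizol and RNeasy and converted to biotinylated cRNA. The deposited values are log2 expression per probe set, normalized between arrays by the authors. Affy is the package named in the submitters' processing notes; background correction and summary method: not given in the sources used here. Of 12488 probe sets, 10833 carried 1 gene symbol in the platform's probe table, and the probe set with the highest mean stood for a gene, which left 8251 genes.

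The 8 arrays were fitted by lmFit and eBayes (limma 3.58.1 under R 4.3.3), with levels for control, 1 h and 2 h and a genotype term. P-values were adjusted by Benjamini-Hochberg over all genes, with a threshold of 0.05, after the code had been tested on simulated data. The genotype difference was the interaction with treatment, and the sustained response was fitted on 12 arrays. No overlap means that both interferon arrays of a genotype lay beyond both of its controls. The number of arrays limits the precision. Alternatives were other controls, other priors and weights, quantile normalization, a filter on dim genes (log2 below 6), means of probe sets, all 22 arrays, and each array left out. Named genes were the largest changes of each comparison by size, up to 5 of each list and a fixed set. The members and lists were chosen with earlier results of these data known.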

Additional observations from a re-analysis of the deposited data

Results flagged for a closer look

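Among 35 genes with the largest changes over both times, at 1 h or between the times, the 4 control arrays and the 4 interferon arrays were searched for a single array far from the other 3, in 70 sets of 4. Chance marks about 1 in 20 such sets. The only array found was the IFNg-/- PBS 4 h liver for Egr1, at 8.08 against 6.44 to 6.68 on the other 3 controls, a gap of 0.854 of the whole range. The cause was not tested.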

How the results depend on the processing

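The counts of calls depended on the controls, on the model of spread and on single arrays, while none of the largest called differences (25 over both times, 10 at 1 h, 16 between the times and 12 against the sustained response) changed direction. The small differences of Ciita and Per1, not called, changed sign between control sets, and Fos between its probe sets. With untreated livers as the only controls, the first response had 297 genes higher and 130 lower, while 1 h had 175 calls, 2 h had 510, and the genotype difference called 3. With PBS livers as the only controls there were 33 lower, 67 at 1 h and 23 for the genotype difference. With array weights there were 62 lower, 73 at 1 h, and 122 higher and 63 lower at 2 h against 1 h. A fit of all 22 arrays gave 61 higher and 9 lower in the first response, 13 at 1 h and 126 at 2 h, and 0 higher and 0 lower at 2 h against 1 h. With 1 h and 2 h as a single level there were 36 higher and 4 lower; in this setting true change between the times enters the spread, and Gbp2, Cxcl10, Rsad2, Ifi47 and Ifit1 lost their calls. A trended robust prior, quantile normalization, the filter on dim genes and means of probe sets kept every count that they gave within 1.5 times.

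When arrays were left out singly, genes higher in the first response ranged from 86 to 170 and genes lower from 3 to 41, the extremes of the latter being without the IFNg-/- 1 h and PBS 4 h livers. Genes lower were also 10 and 9 without the untreated livers, 8 and 5 without the 2 h livers and 7 without the SOCS1-/-IFNg-/- 1 h liver. Calls at 1 h ranged from 19 to 65 and at 2 h from 98 to 254. At 2 h against 1 h, genes higher ranged from 24 to 77 and genes lower from 2 to 19, with 2 without either 1 h liver, 7 and 3 without the 2 h livers and 9 without the untreated IFNg-/- liver. The genotype difference ranged from 0 to 2. Against the sustained response, genes higher ranged from 53 to 138, with 58 and 53 without the 1 h livers, 63 and 58 without the 2 h livers, and 66 and 67 without the SOCS1-/-IFNg-/- livers at 12 h and 16 h. Genes lower ranged from 55 to 267, with 80 and 69 without the 1 h livers, 101 and 55 without the 2 h livers, 81 and 93 without those later livers and 155 without the untreated IFNg-/- liver.

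Of the 25 named genes of the first response, 9 kept their call in every alternative that tested them. It was 4 of 10 at 1 h, 0 of 16 between the times, all of which were lost in the fit of all 22 arrays, and 11 of 12 against the sustained response.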
